A study of Mus musculus with 18 samples.

Results

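The genes described here are 10 markers of enteroendocrine cells, the hormone-secreting cells scattered through the gut lining: the hormone genes Gcg, Pyy, Insl5, Sst and Cck, the serotonin-synthesis gene Tph1, the granin genes Chga, Chgb and Scg2, and the transcription factor gene Neurod1. They were taken by name from the probe accessions, and all 10 were measured, among 26073 genes tested. The groups were tumours of mice on a St. John's wort (SJW) diet given azoxymethane (AOM), tumours of mice on control diet given AOM, non-tumour tissue after AOM on SJW and on control diet, and non-tumour tissue after saline on SJW and on control diet. Each group had 3 arrays, and all mice were male C57BL/6. SJW is a medicinal herb, and AOM is a carcinogen that gives rodents tumours of the bowel. Each array set the RNA of 1 sample (red) against 1 commercial pool of Swiss Webster mouse RNA (green) that held brain, embryo and several other organs but no intestine. A positive log2 ratio thus stands for a sample brighter than the pool. The series calls the samples biological replicates; ages, doses and tumour counts are not given in the sources used here.

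Enteroendocrine cells arise from crypt stem cells and store peptide hormones or serotonin in dense-core granules. L cells make the Gcg products GLP-1 and GLP-2 together with PYY, and in the mouse colon also INSL5. D cells make somatostatin (Sst), I cells cholecystokinin (Cck), and enterochromaffin cells serotonin, through the enzyme tryptophan hydroxylase encoded by Tph1. Granins are packed into the granules of nearly all of these cells and of many neurons. Neurons also express Sst and Cck, and brain is part of the pool. NEUROD1 acts in the precursors of these cells downstream of NEUROG3.

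The labels call the tissue small intestine, and the extraction protocol names liver. The colon gene Car1 had log2 ratios of 1.91 to 5.46 in tumours and 6.34 to 8.38 in non-tumour tissue, and Hoxb13 1.29 to 2.03 and 0.94 to 3.16. The ileal bile acid binding protein gene Fabp6 was well above background in red on 13 of 18 arrays and the lactase gene Lct on 14. Slc10a2, Sis, Apoa4, Gata4 and Fabp2, also listed as small-intestine genes, were so on 18. In non-tumour tissue log2 ratios were 0.36 to 3.03 for Fabp6, -0.24 to 0.91 for Lct and 3.45 to 6.14 for Fabp2. They were -1.93 to 1.82 for Slc10a2, 0.04 to 1.48 for Sis, -0.15 to 1.44 for Apoa4 and -1.15 to -0.27 for Gata4. The liver gene Alb had ratios of -3.46 to 1.39 in tumours and -4.08 to -1.90 in non-tumour tissue. Insulin genes were near the level of the pool: Ins1 was at -0.80 to -0.36 in tumours and -0.23 to 0.43 in non-tumour tissue, and the beta-cell gene G6pc2 was well above background on 0 arrays. Tissue is therefore called intestine below.

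The 6 tumour arrays filled places on 2 slides and the 12 non-tumour arrays on 3 others, and each set was scanned on its own day, so that scan day and tumour cannot be told apart. Median red intensity was 317.5 to 734 on tumour arrays and 128 to 348.5 on non-tumour arrays (precision is set by the 3 arrays a group). On 6 arrays the pool was bright, with median green of 470 to 701 against 186 to 281 on the others; these were control tumour 3, control AOM 2, SJW saline 1 and 3, and control saline 2 and 3.

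Promoter sequences from RefSeq (GRCm38.p6) are shown for Gcg, Sst, Chgb and Scg2, since these genes were among those lower in tumours and hold the motifs that were searched. Each stretch is the 150 bases before the annotated start, 5′ to 3′ on the gene's strand, with capitals at exact matches to the cAMP response element TGACGTCA, the E-box CAGATG bound by NeuroD-type factors, or TATAAA, on either strand. The positions are chr2:62483654-62483803 (Gcg, minus strand), chr16:23890845-23890994 (Sst, minus), chr2:132781492-132781641 (Chgb, plus) and chr1:79440027-79440176 (Scg2, minus).
Gcg: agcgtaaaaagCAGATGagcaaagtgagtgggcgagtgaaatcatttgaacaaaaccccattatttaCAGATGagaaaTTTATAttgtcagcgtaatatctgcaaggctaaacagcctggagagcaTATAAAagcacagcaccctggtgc
Sst: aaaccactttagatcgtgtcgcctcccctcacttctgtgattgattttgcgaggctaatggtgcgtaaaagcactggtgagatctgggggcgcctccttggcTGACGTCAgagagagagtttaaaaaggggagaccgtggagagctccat
Chgb: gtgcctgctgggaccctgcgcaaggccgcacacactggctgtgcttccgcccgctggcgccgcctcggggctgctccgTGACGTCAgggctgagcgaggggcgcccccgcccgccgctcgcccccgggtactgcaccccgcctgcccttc
Scg2: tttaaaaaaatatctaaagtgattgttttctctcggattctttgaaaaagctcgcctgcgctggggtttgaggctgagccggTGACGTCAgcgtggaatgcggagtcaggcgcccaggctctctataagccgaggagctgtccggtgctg

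All 10 genes matched promoter entries, each running from 250 bases before the start to 50 after. TGACGTCA was found for 3 of the 10 genes (Sst, Chgb and Scg2) and in 1.79% of all 32851 promoters of that length. CAGATG was found for Gcg, Insl5 and Cck and in 17.2% of all promoters, and TATAAA for Gcg, Insl5 and Chga and in 13.6%. A gene was counted if any of its promoter entries held the motif, while the shares count single promoters. The TATAAA of Chga lay 5 bases after the start. These matches describe the letters in the windows and show no binding. The motifs do not overlap each other in the stretches shown.

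The first comparisons asked how tumours differed from non-tumour tissue of AOM-treated mice. The hormone genes Gcg, Insl5 and Sst and the granin genes Chga, Chgb and Scg2 fell in tumours on both diets, with log2 differences of -3.87 to -2.25. Gcg and Chgb fell furthest on both diets among the genes whose pool signal was steady. The ratio of Pyy fell too, but on the probe used the signal of the pool itself was far higher on tumour arrays, as described below. Cck passed the test on the control diet only, by a small margin, and Tph1 did not pass on either diet. Neurod1 was not measured above background in non-tumour tissue after AOM, so its call on control diet gives no size of a change. In all, 7 of 10 genes were called lower in SJW tumours and 9 of 10 in control-diet tumours (limma, adjusted p under 0.05), where 24.6% and 32.0% of all genes were called. Genes called lower made up 15.4% of all genes in SJW tumours and 19.3% in control-diet tumours, and genes called higher 9.18% and 12.7%. These counts hold Pyy on both diets and Neurod1 on control diet. With red alone, 6 of 10 genes were called lower on SJW diet and 7 of 10 on control diet (Gcg, Insl5, Sst, Chga, Chgb and Scg2 on both, and Cck on control diet), where 29.6% and 30.0% of all genes were called, 16.0% and 16.2% lower and 13.5% and 13.7% higher. The median over the 10 genes was -2.38 in SJW tumours and -2.75 in control-diet tumours, against -0.06 and -0.05 over all genes. In bulk tissue, fewer cells of a type and less RNA per cell cannot be told apart.

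**Figure D1:**
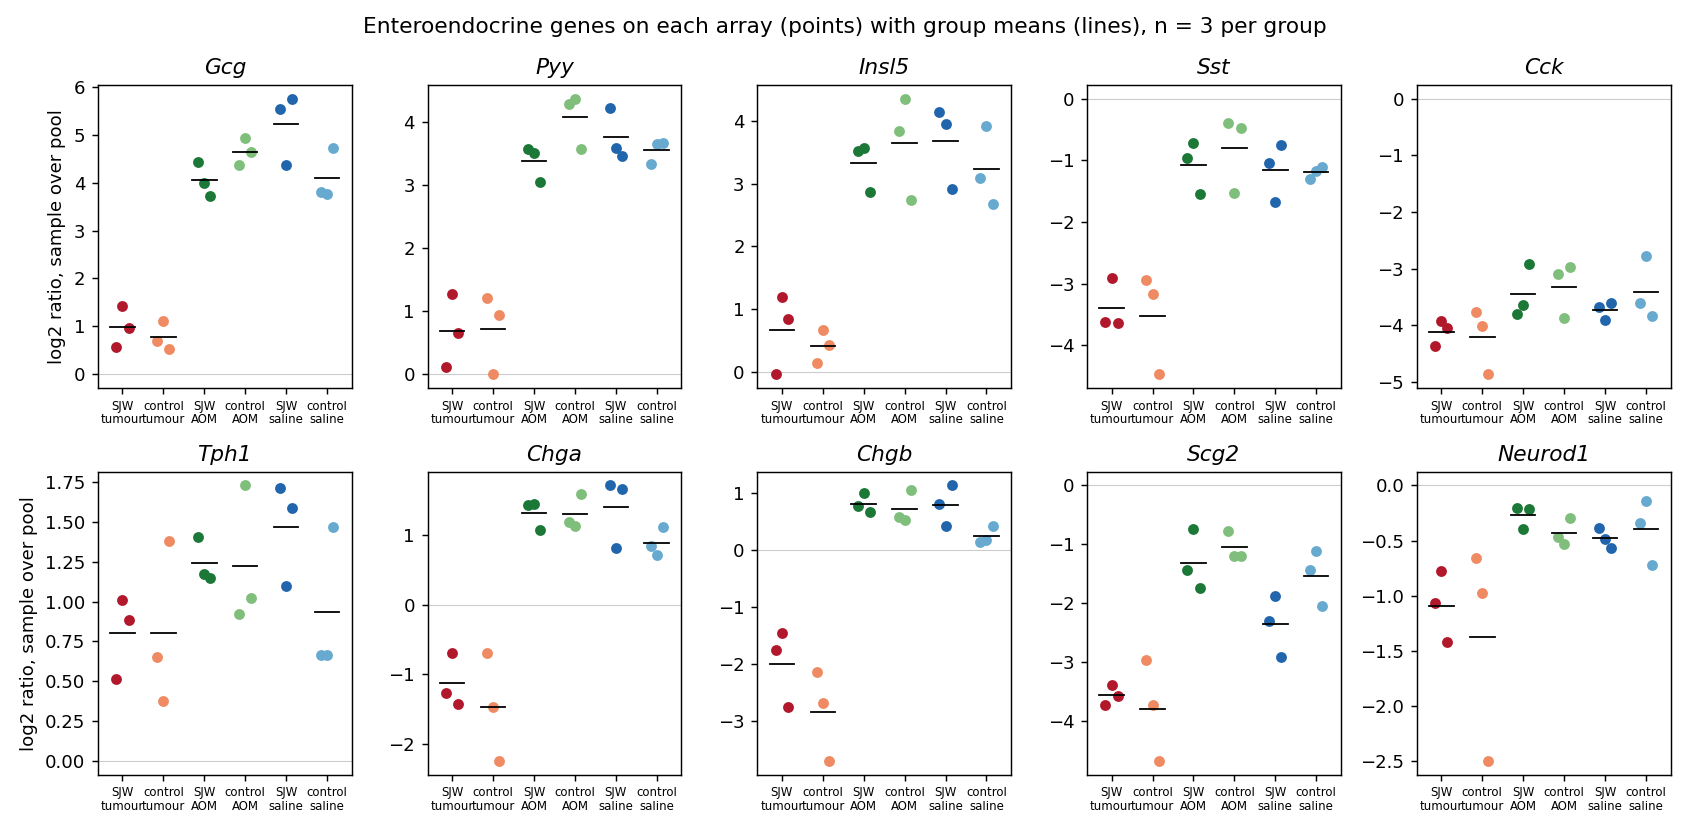
Log2 ratio of sample over pool (vertical axes, log2 units) for the 10 enteroendocrine genes on each of 18 arrays, by group (horizontal axes). Points are arrays and lines are group means of 3 arrays; Gcg, Insl5, Sst, Chga, Chgb and Scg2 lie lower on all 6 tumour arrays than on all 12 non-tumour arrays.

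Gcg encodes proglucagon, the precursor of GLP-1 and GLP-2. Its log2 ratios were 0.56, 1.42 and 0.97 in SJW tumours, against 4.44, 3.99 and 3.72 in SJW non-tumour tissue after AOM. On the control diet they were 0.70, 1.12 and 0.53 in tumours, against 4.37, 4.95 and 4.64 after AOM. The highest tumour, at 1.42, lay far below the lowest non-tumour sample, at 3.72. The difference was -3.07 ± 0.35 (SE) on SJW diet, or 8.37-fold (adjusted p = 2.13e-05, limma), and -3.87 ± 0.35 on control diet, or 14.6-fold (adjusted p = 2.03e-06, limma). The 10 replicate spots of the Gcg probe differed within an array by an SD of 0.08 to 0.25, less than the SD of 0.30 to 0.43 between tumours of a group.

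Insl5 encodes a relaxin-family peptide of colonic L cells. Its log2 ratios were -0.04, 1.18 and 0.84 in SJW tumours, against 3.53, 3.57 and 2.88 in SJW non-tumour tissue after AOM. On the control diet they were 0.14, 0.67 and 0.42 in tumours, against 3.84, 4.36 and 2.74. The groups did not overlap on either diet. Insl5 fell by 2.66 ± 0.43 in SJW tumours (adjusted p = 0.000436, limma) and differed by -3.24 ± 0.43 in control-diet tumours (adjusted p = 6.39e-05, limma).

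Pyy encodes peptide YY, which L cells release with GLP-1. On its brighter probe the log2 ratios were 0.11, 1.27 and 0.65 in SJW tumours, against 3.57, 3.50 and 3.04 in SJW non-tumour tissue after AOM, a difference of -2.69 ± 0.33 (adjusted p = 4.46e-05, limma). Control-diet values were 1.21, -0.01 and 0.94 in tumours, against 4.28, 4.37 and 3.57, a difference of -3.36 ± 0.33 (adjusted p = 4.76e-06, limma). The green signal of the pool on this probe was 13.11 to 13.52 (normalised log2 intensity) on 5 of the tumour arrays and 10.69 on control tumour 3, against 9.60 to 10.64 on the 12 non-tumour arrays. The pool was the same on all arrays, and this shift of 2.92 between tumour and non-tumour arrays was larger than that of 99.8% of probes. The red signal of the tissue was 11.63 to 14.69 in tumours and 13.17 to 14.21 in non-tumour tissue, so the tissue signal overlapped. With red alone, the difference was 0.32 ± 0.46 on SJW diet (adjusted p = 0.632, limma) and -0.95 on control diet (adjusted p = 0.133, limma).

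A second Pyy probe had pool signals of 6.81 to 7.96 on tumour arrays and 7.36 to 8.36 on non-tumour arrays. Its log2 ratios were 2.00, 5.27 and 4.55 in SJW tumours, against 5.37, 5.34 and 4.65 in SJW tissue after AOM. Among control-diet mice they were 5.06, 2.66 and 2.46 in tumours, against 5.84, 6.00 and 5.51. The spread among tumours was thus wide. SJW tumours 2 and 3 and control tumour 1 were near the non-tumour level on this probe. Of these, SJW tumour 2 and control tumour 1 were also the highest tumours on the first probe. On this probe the difference was -1.18 ± 0.69 on SJW diet (adjusted p = 0.228, limma) and -2.39 ± 0.69 on control diet (adjusted p = 0.0158, limma). The probes thus gave different sizes for Pyy, and the call on SJW diet was made only on the probe whose pool signal had shifted. A cause for that shift was not tested.

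**Figure D2:**
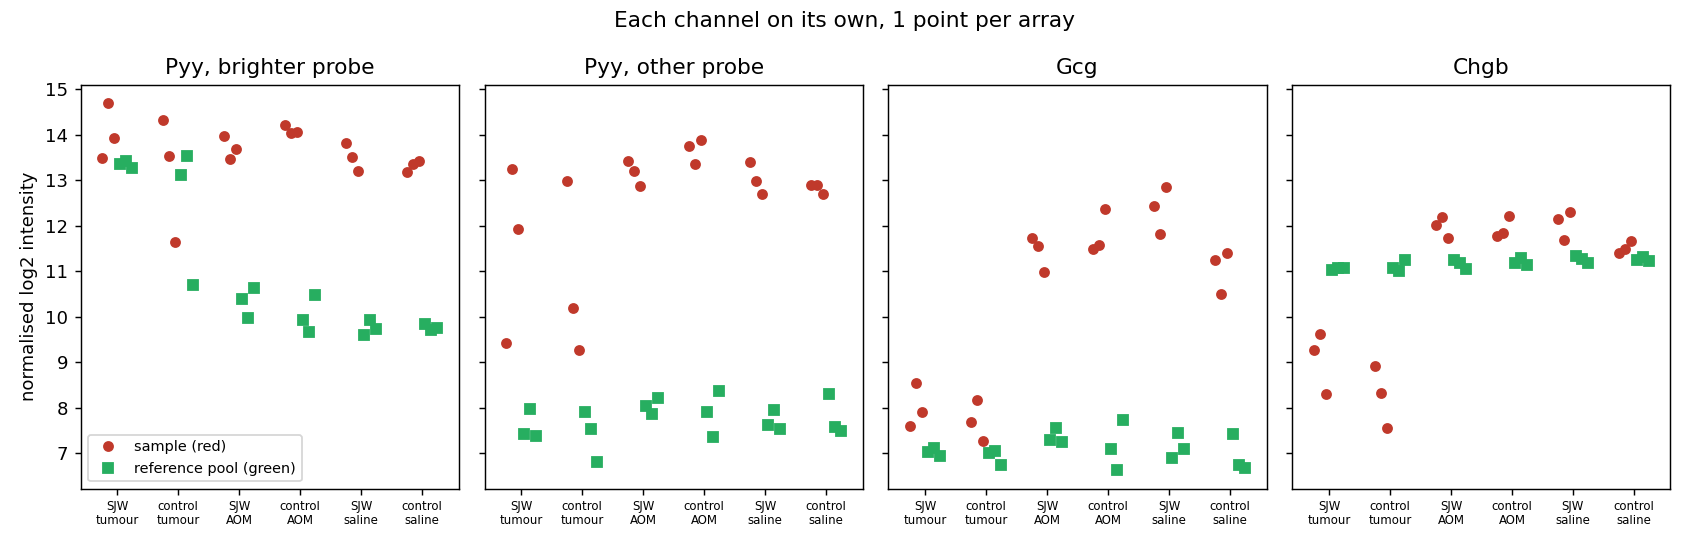
Normalised log2 intensity (vertical axis) of the sample in red and of the pool in green, 1 point per array, by group, for both Pyy probes, Gcg and Chgb. On the brighter Pyy probe the pool is at 13.11 to 13.52 on 5 tumour arrays, while for Gcg and Chgb the pool stays level and the sample signal is lower in tumours.

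The other genes had no such shift of the pool. The pool signal of Gcg, Insl5, Sst, Cck, Tph1, Chga, Chgb and Scg2 differed between tumour and non-tumour arrays by -0.31 to 0.33 on average, and that of Neurod1 by 0.61. Over 34081 probes the median shift was 0.02, and 2.63% of probes shifted by more than 1. With red alone the calls of Gcg, Insl5, Sst, Chga, Chgb and Scg2 held in every tumour comparison, with mean red differences (tumour minus non-tumour) of -3.79 for Gcg, -3.24 for Insl5, -2.08 for Sst, -2.61 for Chga, -3.20 for Chgb and -2.10 for Scg2.

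Sst encodes somatostatin, which inhibits the release of other gut hormones. Its log2 ratios were -3.62, -2.91 and -3.64 in SJW tumours, against -0.96, -0.73 and -1.54 in SJW non-tumour tissue after AOM. In mice on control diet they were -2.95, -3.17 and -4.47 in tumours, against -0.39, -1.53 and -0.47. Sst was below the pool on every array and lower on every tumour array than on any non-tumour array. It fell in both, with differences of -2.32 ± 0.38 in SJW tumours (adjusted p = 0.000502, limma) and -2.73 ± 0.38 in control-diet tumours (adjusted p = 9.35e-05, limma).

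Chga and Chgb encode chromogranins A and B, acidic proteins of the granule core. The log2 ratios of Chgb were -1.75, -1.46 and -2.76 in SJW tumours, against 0.77, 1.01 and 0.68 in SJW non-tumour tissue after AOM. Control-diet values were -2.14, -2.69 and -3.70 in tumours, against 0.60, 0.54 and 1.07. Chgb was thus above the pool in all of these non-tumour samples and below it in all 6 tumours. It fell with differences of -2.81 ± 0.35 on SJW diet (7.03-fold, adjusted p = 4.48e-05, limma) and -3.58 ± 0.35 on control diet (12.0-fold, adjusted p = 3.96e-06, limma).

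For Chga the log2 ratios were -1.26, -0.70 and -1.42 in SJW tumours, against 1.43, 1.44 and 1.07 in SJW non-tumour tissue after AOM. Among control-diet mice they were -0.70, -1.47 and -2.24 in tumours, against 1.18, 1.12 and 1.58. Here too every tumour was below the pool and every non-tumour sample above it. Chga fell with differences of -2.44 ± 0.32 (adjusted p = 7.57e-05, limma) on SJW diet and -2.76 ± 0.32 (adjusted p = 1.84e-05, limma) on control diet.

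Scg2 encodes secretogranin II, the precursor of secretoneurin. The arrays gave log2 ratios of -3.74, -3.38 and -3.57 in SJW tumours, against -1.44, -0.75 and -1.75 in SJW non-tumour tissue after AOM. In mice on control diet they were -2.97, -3.73 and -4.68 in tumours, against -0.78, -1.19 and -1.19. Red was well above background on 1 of 3 SJW tumour arrays and 2 of 3 control tumour arrays, so the tumour level was near the limit of the measurement. Scg2 fell with differences of -2.25 ± 0.38 on SJW diet (adjusted p = 0.000515, limma) and -2.74 ± 0.38 on control diet (adjusted p = 7.43e-05, limma).

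Cck encodes cholecystokinin. Log2 ratios were -4.37, -3.93 and -4.04 in SJW tumours, against -3.79, -3.64 and -2.91 in SJW non-tumour tissue after AOM, a difference of -0.67 ± 0.33 (adjusted p = 0.149, limma), with no overlap. Control-diet values were -3.76, -4.01 and -4.86 in tumours, against -3.10, -3.86 and -2.98, and the groups overlapped. That difference was -0.90 ± 0.33 (adjusted p = 0.0475, limma), and it was -0.57 (adjusted p = 0.221, limma) without control tumour 3, -0.99 (adjusted p = 0.0621, limma) without control tumour 2, -0.79 (adjusted p = 0.141, limma) without control AOM 1 and -0.73 (adjusted p = 0.157, limma) without control AOM 3.

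Tph1 encodes tryptophan hydroxylase of enterochromaffin cells and passed the test in no comparison. The arrays gave log2 ratios of 0.52, 1.01 and 0.89 in SJW tumours, against 1.40, 1.17 and 1.15 in SJW non-tumour tissue after AOM, a difference of -0.44 ± 0.28 (95% interval -1.04 to 0.17, adjusted p = 0.276, limma). Among control-diet mice they were 0.65, 0.38 and 1.38 in tumours, against 0.92, 1.73 and 1.02, a difference of -0.42 ± 0.28 (interval -1.03 to 0.18, adjusted p = 0.272, limma). The groups overlapped on control diet and not on SJW diet. A second, dimmer probe gave -0.41 and 0.19, and its pool signal was well above background on 0 arrays. Against saline tissue Tph1 differed by -0.66 ± 0.28 on SJW diet (interval -1.27 to -0.06, adjusted p = 0.0806, limma). That difference passed without SJW saline 2 (-0.85, adjusted p = 0.0477, limma). On control diet it was -0.13 ± 0.28 (adjusted p = 0.757, limma). The intervals do not reach the size of the falls of Gcg or the chromogranins; that Tph1 differs from them was not tested.

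Neurod1 was near background. Red was well above background on all 6 tumour arrays and on 1 of the 12 non-tumour arrays, so it entered the test through the tumours. Log2 ratios were -1.07, -0.78 and -1.42 in SJW tumours, against -0.21, -0.39 and -0.21 in SJW non-tumour tissue after AOM. In mice on control diet they were -0.66, -0.97 and -2.50 in tumours, against -0.46, -0.53 and -0.29. The fit of the ratios gave an adjusted p of 0.0811 on SJW diet and 0.0382 on control diet (limma), and on control diet 0.16 without control tumour 3 and 0.0599 to 0.0987 without control AOM 1, 2 or 3. The mean red signal was 6.68 in SJW tumours and 6.76 in SJW tissue after AOM, and 6.32 in control-diet tumours and 6.67 in control-diet tissue after AOM (normalised log2 intensity; adjusted p of 0.807 and 0.241 with red alone, limma). The red signals of tumours and non-tumour tissue overlapped. No difference or fold is given, since the level after AOM is only a bound, and the pool signal had shifted by 0.61.

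Control tumour 3, whose pool signal was bright, was the lowest of the tumours for Gcg, Sst, Cck, Chga, Chgb, Neurod1 and Scg2. Without it the control-diet differences were -3.75 for Gcg, -2.26 for Sst, -2.38 for Chga, -3.15 for Chgb and -2.30 for Scg2, all still called. Over settings, the calls of Gcg, Insl5, Sst, Chga and Chgb held in all 4 tumour comparisons under every alternative in which the gene was measured.

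Against saline-treated tissue the comparisons share the tumour samples with those above, and their values are given side by side. On SJW diet 7 of 10 genes were called lower, where 36.2% of all genes were called, 22.5% lower and 13.7% higher. The control diet gave 8 of 10 called lower, where 32.9% of all genes were called, 19.6% lower and 13.2% higher. The medians over the 10 genes were -2.37 and -2.34. With red alone 6 and 7 of 10 were called lower, where 37.3% and 34.7% of all genes were called, 20.5% and 18.8% lower and 16.8% and 15.9% higher. The 8 on control diet include Neurod1 (adjusted p = 0.0323; 0.126 with red alone, limma), which was above background on 1 of the 3 control saline arrays. Saline tissue gave log2 ratios of 5.55, 4.38 and 5.76 for Gcg on SJW diet and 3.81, 3.76 and 4.73 on control diet. Relative to these the tumours were lower by 18.96-fold on SJW diet (-4.24 ± 0.35, adjusted p = 3.92e-07, limma) and by 9.98-fold on control diet (-3.32 ± 0.35, adjusted p = 4.17e-06, limma). Chgb in saline tissue was at 0.81, 0.43 and 1.14 on SJW diet and 0.15, 0.18 and 0.43 on control diet, and the tumour differences were -2.78 ± 0.35 and -3.10 ± 0.35. Scg2 in SJW saline tissue was at -2.29, -1.88 and -2.91, the lowest of the non-tumour groups, and its difference was the smallest of the called ones on SJW diet, at -1.20 ± 0.38 (adjusted p = 0.02, limma). That call was lost without SJW saline 1 (-1.17, adjusted p = 0.0532), SJW saline 2 (-0.96, adjusted p = 0.0859), SJW tumour 1 (-1.12, adjusted p = 0.0644) or SJW tumour 3 (-1.20, adjusted p = 0.0504, all limma), and with median centring (-0.83, adjusted p = 0.126). On the other Pyy probe the differences from saline tissue were -1.39 ± 0.69 on SJW diet (adjusted p = 0.132, limma) and -1.64 ± 0.69 on control diet (adjusted p = 0.0814, limma).

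**Figure D3:**
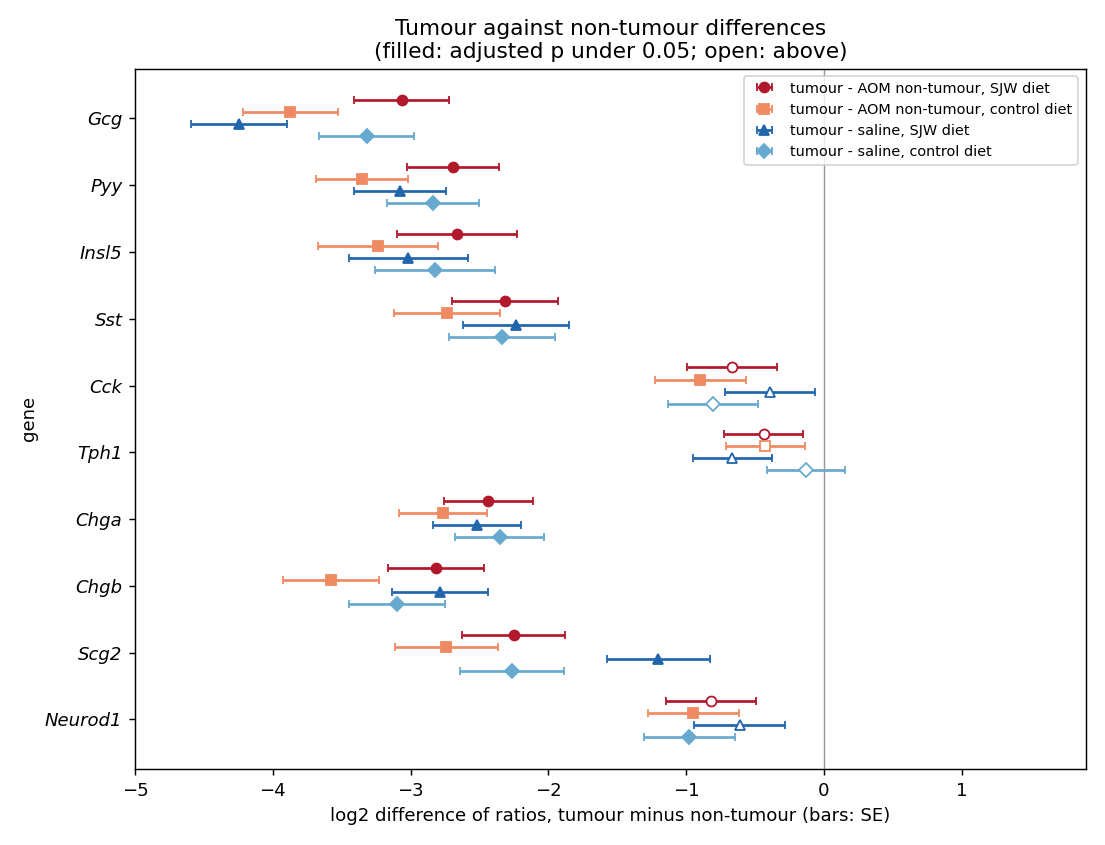
Log2 difference of each gene, tumour minus non-tumour (horizontal axis, log2 units, bars are SE), for tumours against AOM-treated and against saline-treated tissue on each diet. Filled symbols have an adjusted p under 0.05; Gcg, Insl5, Sst, Chga and Chgb lie between -4.24 and -2.23, and Tph1 has open symbols throughout. Neurod1 is plotted as fitted, although it was near background in non-tumour tissue.

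Other enteroendocrine genes were read in 5 lists of hormones, transcription factors, granule and processing genes, amine genes and nutrient receptors, 63 genes in all. Of these 22 were lower and 4 higher in SJW tumours than in SJW tissue after AOM, and 28 were lower and 6 higher on control diet. The median over the 63 was -0.32 and -0.43, against -2.38 and -2.75 for the 10 genes above. Beside these counts, 15.4% of all genes were called lower and 9.18% higher on SJW diet, and 19.3% and 12.7% on control diet. Of the granule and prohormone-processing genes 9 of 19 were lower and 1 higher on SJW diet, and 11 lower and 2 higher on control diet. Rab3b, a small GTPase of secretory vesicles, fell, with differences of -2.25 ± 0.29 in SJW tumours and -3.16 ± 0.29 in control-diet tumours. Syt7, a calcium sensor of exocytosis, fell with differences of -2.04 ± 0.27 and -2.46 ± 0.27 (its pool signal shifted by 0.82; with red alone -1.21 and -1.54), and Resp18, a granule protein gene, had -2.32 ± 0.29 on control diet. Cadps, which primes granules for release, was higher by 3.06 ± 0.45 in SJW tumours and by 1.82 ± 0.45 in control-diet tumours. The other higher granule gene on control diet, named after its value was seen, was the SNARE regulator Cplx2 (0.71 ± 0.17; 0.26 with red alone, adjusted p = 0.399, limma).

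Among 13 other hormone genes 5 were lower on SJW diet and 7 on control diet, and 0 were higher. With red alone Gal and Gast were called higher on each diet (named after their values were seen), and their pool signals had shifted by 1.39 and 3.20. Tac1, the substance P precursor, fell with differences of -2.29 ± 0.26 in SJW tumours and -2.71 ± 0.26 in control-diet tumours. Ppy, pancreatic polypeptide, had -1.89 ± 0.36 and -2.68 ± 0.36, and Ghrl, ghrelin, fell by 1.72 ± 0.28 in SJW tumours. Penk, the enkephalin precursor, fell by 2.13 ± 0.31 in control-diet tumours. Among 7 amine genes 3 were lower and 1 higher on each diet. Maob, a monoamine oxidase, had differences of -2.95 ± 0.25 in SJW tumours and -3.63 ± 0.25 in control-diet tumours. The serotonin transporter Slc6a4 had -1.84 ± 0.27 and -2.11 ± 0.27, and the decarboxylase Ddc -1.92 ± 0.29 and -1.73 ± 0.29. The serotonin-handling genes Slc6a4 and Ddc fell, while Tph1 did not pass; that they differ from Tph1 was not tested. The higher ones, named after their values were seen, were the vesicular transporter Slc18a1 on SJW diet (1.24 ± 0.36), whose pool signal also shifted by 1.46, and the histamine-synthesis gene Hdc on control diet (2.11 ± 0.70).

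Among 14 transcription factor genes 3 were lower and 1 higher on SJW diet and 5 lower and 2 higher on control diet, on SJW diet close to the shares of all genes (15.4% lower, 9.18% higher). Etv1 fell with differences of -1.16 ± 0.29 in SJW tumours and -1.43 ± 0.29 in control-diet tumours, and Nkx2-2, needed for hormone cell identity, with -0.97 ± 0.30 and -1.35 ± 0.30. St18 fell by 0.71 ± 0.16 on control diet. Sox4 rose by 1.18 ± 0.23 on SJW diet (adjusted p = 0.00146, limma), but with red alone it did not pass (0.94, adjusted p = 0.217, limma). On control diet Sox4 was higher by 0.71 ± 0.23 and did not pass with red alone (adjusted p = 0.111, limma). Of 10 nutrient receptors 2 were lower and 1 higher on each diet, near the shares of all genes. The fatty acid receptor Ffar4 had -1.40 ± 0.40 and -2.08 ± 0.40, and the glucose transporter Slc5a1 -1.27 ± 0.24 and -0.93 ± 0.24. Slc5a1 is also listed as a marker of absorptive enterocytes. The higher call was that of Ffar1, which was well above background on 6 arrays but not in tissue after AOM. Ffar1 entered the test through the tumours, so no size of its change is given. With red alone it did not pass (adjusted p = 0.0643 and 0.0829, limma).

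**Figure D4:**
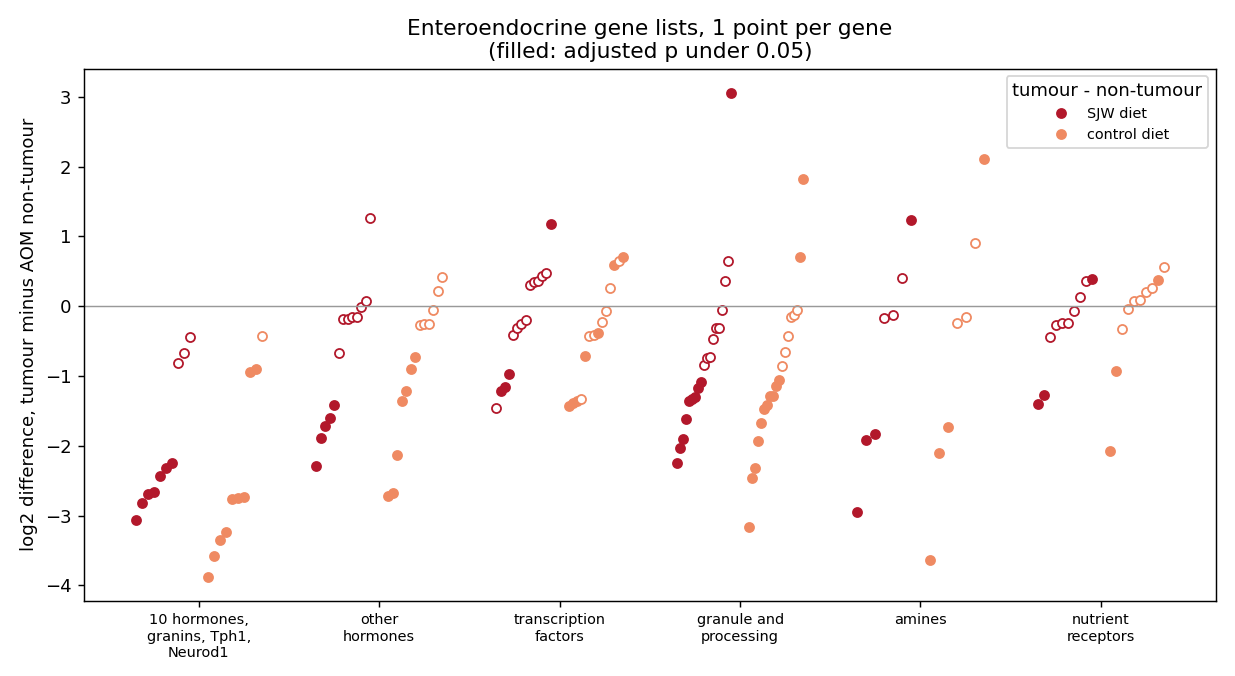
Log2 difference, tumour minus AOM-treated non-tumour tissue (vertical axis), of the 10 genes and of the genes of 5 enteroendocrine lists, 1 point per gene and diet. Filled points have an adjusted p under 0.05; the 10 genes have the lowest medians, at -2.38 on SJW diet and -2.75 on control diet.

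Markers of other cells moved in the same comparisons. Against AOM tissue, 15.4% of all genes were called lower and 9.18% higher on SJW diet, and 19.3% and 12.7% on control diet. Absorptive enterocyte genes had list means of -0.32 to -0.03 in tumours and 0.59 to 1.21 in non-tumour tissue. Goblet cell genes were lower for 11 of 11 on both diets, and the mean log2 ratio of the list was 0.19 to 2.27 in tumours and 4.15 to 5.21 in non-tumour tissue. General epithelial genes were lower for 8 of 9 on SJW diet and 9 of 9 on control diet, with medians of -1.07 and -0.93, and list means of 2.44 to 3.30 in tumours and 3.75 to 4.25 in non-tumour tissue. Smooth muscle genes were lower for 9 of 13 on SJW diet and 11 of 13 on control diet against AOM tissue. Against saline tissue 1 and 3 of 13 were lower, where 22.5% and 19.6% of all genes were called lower. Enteric neuron genes, which share granins with endocrine cells, were lower for 6 of 16 and 8 of 16 against AOM tissue, with list means of -1.77 to -0.98 in tumours and -1.15 to -0.26 in non-tumour tissue. Colon identity genes were lower for 9 of 14 on SJW diet and 10 of 14 on control diet, with medians of -1.84 and -2.56, and list means of 0.05 to 1.34 in tumours and 2.72 to 3.99 in non-tumour tissue. Of 7 Paneth cell genes 1 was higher on SJW diet and 2 on control diet, and 0 were lower. Their list means were 1.43 to 3.13 in tumours and -0.66 to 2.90 in non-tumour tissue. The neuron marker Prph was well above background on 18 arrays and Elavl4 on 15. The part of any of these lists in the result was not tested.

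AOM itself was compared with saline in non-tumour tissue. No enteroendocrine gene passed on either diet: 0 of 10 on SJW diet, where 1.14% of all genes were called (0.656% higher, 0.479% lower), and 0 of 10 on control diet, where 0.583% were called (0.456% higher, 0.127% lower; limma). At an unadjusted p under 0.05 there were 2 on SJW diet, Gcg and Scg2, and 0 on control diet. Gcg was at 4.44, 3.99 and 3.72 after AOM and 5.55, 4.38 and 5.76 after saline on SJW diet, a difference of -1.18 ± 0.35 (adjusted p = 0.0907, limma). It was negative within each of 3 slides, at -2.04 to -0.39, and passed without SJW saline 2 (-1.60, adjusted p = 0.0195, limma), while without the 6 arrays of bright pool signal it was -0.33 (adjusted p = 0.795, limma). On control diet Gcg was at 4.37, 4.95 and 4.64 after AOM and 3.81, 3.76 and 4.73 after saline, a difference of 0.55 ± 0.35 (adjusted p = 0.531, limma). Scg2 on SJW diet was at -1.44, -0.75 and -1.75 after AOM and -2.29, -1.88 and -2.91 after saline, a difference of 1.05 ± 0.38 (adjusted p = 0.149, limma), positive on each slide at 0.86 to 1.16. The differences of the 10 genes ranged from -1.18 to 1.05 on SJW diet and from -0.03 to 0.55 on control diet, where 9 of 10 were positive.

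Smooth muscle genes had positive differences after AOM for 13 of 13 on both diets (medians 1.81 on SJW diet and 2.09 on control diet, 0 called). Goblet cell genes on SJW diet had negative differences for 11 of 11, with a median of -0.68 and 0 called. Enteric neuron list means on SJW diet were -0.75 to -0.48 after AOM and -1.15 to -1.06 after saline. On control diet they were -0.75 to -0.26 after AOM and -0.98 to -0.88 after saline. Neurons also express granins, and the part of the neuron list in the Scg2 difference was not tested. The mean of the pancreatic acinar list was 3.52 on SJW AOM 3, 1.15 on SJW saline 2 and 0.38 on SJW saline 1, against -1.39 to -0.50 on the other non-tumour arrays. Gcg, which the pancreas also expresses, was lowest of its group on SJW AOM 3 and on SJW saline 2; the part of this list was not tested.

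SJW diet was compared with control diet in each setting. After saline, after AOM and in tumours 0 of 10 genes passed, and 0% of all genes were called in each comparison (limma). At an unadjusted p under 0.05 there were 2 genes after saline, 0 after AOM and 1 in tumours. After saline Gcg differed by 1.13 ± 0.35 (SJW minus control, adjusted p = 0.233, limma), higher on each of 3 slides, and Scg2 by -0.83 ± 0.38 (adjusted p = 0.449, limma), lower on each. In tumours Chgb differed by 0.85 ± 0.35 (adjusted p = 0.792, limma), with a 95% interval of 0.11 to 1.59. After AOM the largest difference was that of Pyy, at -0.70 ± 0.33 (adjusted p = 1, limma). The AOM change and the tumour change did not differ between diets for any of the 10 genes at the threshold (0% of all genes called, unadjusted p under 0.05 for 1 and 0 of them). The largest such difference was that of the AOM change of Gcg, at -1.73 ± 0.49 (SJW minus control, adjusted p = 0.476, limma).

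Among non-tumour groups the order of the mean Gcg log2 ratio was SJW saline (5.23 ± 0.74 SD), control AOM (4.65 ± 0.29), control saline (4.10 ± 0.54) and SJW AOM (4.05 ± 0.36), and the samples of each group overlapped those of its neighbour in that order. Tumours followed at 0.99 ± 0.43 on SJW diet and 0.78 ± 0.30 on control diet, which overlapped each other and did not pass (adjusted p = 0.992, limma). The order of Chgb was SJW AOM (0.82 ± 0.17), SJW saline (0.79 ± 0.36), control AOM (0.74 ± 0.29) and control saline (0.25 ± 0.15), then tumours at -1.99 ± 0.68 on SJW diet and -2.84 ± 0.79 on control diet. Control saline samples lay below those of control AOM without overlap, a difference that did not pass (adjusted p = 0.598, limma).

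Pairs of the 10 genes varied together only in part. Over the 12 non-tumour arrays the median correlation of 45 pairs was 0.09, from -0.66 for Gcg and Scg2 to 0.90 for Chga and Chgb. Pyy and Insl5, both of L cells, correlated at 0.71. Over the 6 tumours the median was 0.40, from -0.73 for Tph1 and Neurod1 to 0.96 for Sst and Neurod1. There Sst correlated at 0.92 with Chga and Gcg at 0.89 with Insl5. Control tumour 3 was the lowest tumour for Gcg, Sst, Chga and Neurod1, and its part in these values was not tested. The points share arrays and a common pool, and the values are descriptions. The genes whose ratios followed the mean of the 10 most closely over the non-tumour arrays were Tmem198b, Msantd4, Pdhx, Hspa9, Olfr1066, Mtf1, Nelfcd and Ibtk, with r of 0.88 for the first to 0.83 for the last among 16259 genes. Over the 6 tumours r was 0.89 for Mtf1 and between -0.73 and 0.35 for the others.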

How the data were processed

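RNA of 18 intestine samples was measured on two-colour Agilent arrays. Per the labels, samples carried Cy5 and the pool Cy3, and dyes were not swapped. Per the file headers, arrays were read with Agilent Feature Extraction 10.10.1.1 (protocol GE2_1010_Sep10, annotation mm9). The deposited intensity values are median spot and background intensities. The deposited log10 ratio sets red against green once the scanner software has corrected both. The authors' deposited log2 values form a table of 35491 entries that matched the scanner's processed ratios on every array (slopes of 0.999949 to 1.00004), which settles scale and direction; the sources used here do not say how its probes were chosen. It lacks the probes used for Pyy and Scg2. Its columns were not centred; their medians for replicates 1 to 3 were 0.182, 0.125 and 0.156 (SJW tumour), 0.157, 0.125 and 0.342 (control tumour), 0.11, 0.129 and -0.031 (SJW AOM), 0.103, 0.206 and 0.0529 (control AOM), 0.228, 0.148 and 0.148 (SJW saline) and 0.16, 0.207 and 0.152 (control saline).

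Background was corrected with normexp (offset 50) and ratios by loess within arrays, giving the 1639 control spots weight 0. These spots and population outliers were then dropped, and the spots of each probe averaged. The filter needed red well above background on every array of at least 1 group (34081 of 41174 probes passed). Scanner files were named through RefSeq accessions, and the brightest kept probe per gene was used. Single channels were taken after loess and Aquantile. The comparisons used limma 3.58.1 (R 4.3.3), in 1 fit of 18 arrays with 12 residual degrees of freedom, over 11 comparisons, with Benjamini and Hochberg adjustment over 26073 genes; the fit was tested on simulated data. Errors are SE of the fit, or SD where stated, with n = 3 arrays a group.

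Members and lists were chosen with earlier results of these data known. Named besides the 10 genes were up to 3 called genes per list with the smallest adjusted p and the 8 genes most alike over non-tumour arrays. Lists are described by counts and medians only. Replicate numbers equal slides on non-tumour arrays. Same-numbered samples deviated together with r over 0.1 in every pair only for SJW against control diet after saline (r of 0.17 to 0.41). On SJW diet r was also positive in every pair for AOM against saline (0.03 to 0.30) and for tumour against saline (0.02 to 0.06). Alternatives were other centring, the scanner's ratio, the deposited table, red alone, another offset, no filter, the mean of the kept probes, slide, replicate or pool brightness as a block, and leaving out single arrays. Single values of some genes in the lists are not reported here.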

Additional observations from a re-analysis of the deposited data

Results flagged for a closer look

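The AOM change of Gcg went opposite ways on the diets: all 3 SJW samples after AOM lay below the mean of SJW saline samples, and all 3 control-diet samples after AOM lay above the mean of control saline samples. The difference between the diets was -1.73, and the test of it gave an adjusted p of 0.476 (limma). Pyy showed the same pattern with a difference of -0.90 (adjusted p = 0.56, limma) on the probe used. Within slides both genes were lower after AOM on each of 3 slides on SJW diet. On control diet they were higher on 2 of 3, at -0.09 to 1.19 for Gcg and -0.11 to 0.95 for Pyy. As given above, the Gcg change on SJW diet was smaller without the arrays of bright pool signal. On the other Pyy probe the mean AOM changes also went opposite ways, at -0.21 on SJW diet and 0.75 on control diet. The difference between the diets was -0.96 on that probe (adjusted p = 0.731, limma). There 2 of 3 SJW samples after AOM, at 5.37 and 5.34, lay just above the saline mean of 5.33.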

How the results depend on the processing

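Over 31 called differences of the 10 genes, 23 stayed called in the same direction under every alternative in which they were measured: all 4 tumour comparisons of Gcg, Insl5, Sst, Chga and Chgb, and 3 of Scg2. Of 79 uncalled differences, 38 changed sign in at least 1 setting, and 0 of these were called after the change; 6 uncalled ones were called in some setting. With the authors' deposited table, which holds 8 of the 10 probes used, 5 genes were called in tumours against AOM tissue (9 otherwise) and 5 against saline tissue (8 otherwise) on control diet. The 9 and the 8 include Pyy and Scg2, whose probes that table lacks. Leaving out 1 array at a time, the number called ranged from 7 to 7 on SJW diet and 7 to 9 on control diet against AOM tissue, from 6 to 7 and 7 to 9 against saline tissue, and from 0 to 1 for AOM against saline on SJW diet; it stayed at 0 in the other comparisons. Over all genes, leaving out 1 array gave 4484 to 5384 calls on SJW diet and 6169 to 7598 on control diet against AOM tissue. Against saline tissue it gave 7331 to 8664 and 6489 to 8000. Red alone turned the Pyy difference on SJW diet to 0.32 against AOM tissue and 0.51 against saline tissue. On SJW diet the scanner's ratio and the deposited table turned Neurod1 against saline to 0.11. On control diet they turned Cck against saline to 0.049, and Tph1 against saline turned to 0.23 (median centring), 0.14 (red alone), 0.30 (mean of the kept probes), 0.084 (reference brightness as a block) and, leaving out 1 array, ranged from -0.42 to 0.14. With replicate number as a block, 8 genes were called in control-diet tumours against AOM tissue, where Cck (adjusted p = 0.0669, limma) was lost; the block changed no other call of the 10 genes. All-gene counts in tumour comparisons ranged from 3030 to 9722 over settings. Those of AOM against saline ranged from 0 to 431 on SJW diet (296 in the values reported) and 0 to 389 on control diet (152 reported), and 0 to 600 and 11 to 191 with 1 array left out. SJW against control diet after saline gave up to 71 genes with slide as a block and up to 291 with 1 array left out. Without the 6 bright-pool arrays, without non-uniform spots and the other Pyy probe were alternatives chosen after seeing the data. Without the bright arrays 9 genes on SJW diet and 8 on control diet were called in tumours against AOM tissue. The 9 include Cck and also Neurod1 (adjusted p = 0.00587, limma), whose level after AOM is only a bound. Without non-uniform spots 5 and 6 of the 7 left were called. Over all genes that setting called 3030 and 4266, against 6416 and 8333 in the values reported. All-gene counts for that comparison without the bright arrays, with the deposited table and with the replicate block are not reported here. The causes were not tested.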

Other observations

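Against saline-treated tissue, 28 of the 63 further enteroendocrine genes were lower in SJW tumours and 7 higher, and 27 were lower and 6 higher on control diet. Among all genes 22.5% were lower and 13.7% higher on SJW diet, and 19.6% and 13.2% on control diet, so the higher genes of the lists were no larger a share than among all genes. The transcription factor gene Pax4, which acts in the D and enterochromaffin cell lineages, was lower by -3.31 ± 0.54 on SJW diet (adjusted p = 0.000221, limma), and on control diet its difference was -0.71 ± 0.54 (adjusted p = 0.333, limma). Sox4 was higher by 1.24 ± 0.23 on SJW diet and 1.19 ± 0.23 on control diet, and St18 was lower by -0.90 ± 0.16 on control diet. Among hormones, Ppy was lower by -2.16 ± 0.36 and -2.08 ± 0.36, Tac1 by -1.88 ± 0.26 and -2.41 ± 0.26, and Ghrl by -1.49 ± 0.28 on control diet. Maob was lower by -3.67 ± 0.25 and -3.96 ± 0.25, and Cadps was higher by 3.81 ± 0.45 on SJW diet. The nutrient receptor genes were lower for 5 of 10 on SJW diet and 2 of 10 on control diet. Their list mean was 1.29 in SJW saline tissue and 0.81 in control saline tissue. With pool brightness as a block 3 were called on SJW diet. On that diet Slc5a1, also listed as an enterocyte marker, was at -2.09 ± 0.24, Ffar4 at -2.18 ± 0.40 and Gpr119 at -1.25 ± 0.27.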
